A study of Mus musculus with 18 samples.

Results

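The transcripts of Lhx2 and Lhx9 were followed through 18 RNA sequencing libraries of dissected embryonic mouse cortex. They are 2 of the 38355 genes in the count files, and their rows were found by symbol and checked by Ensembl identifier. The tissue came from C57BL/6 embryos at E12.5, around the onset of cortical neurogenesis. The genotypes were Dmrt3-/-;Dmrt5-/- (double KO, 5 libraries), Dmrt5-/- (Dmrt5 KO, 4 libraries), Dmrt3-/- (Dmrt3 KO, 5 libraries) and wild type (WT, 4 libraries). Dmrt3 and Dmrt5 are transcription factors of cortical progenitors with a doublesex-type DNA-binding domain, and the current symbol of Dmrt5 is Dmrta2. The labels name no Cre driver, and say nothing on which embryos or litters each library was made from. Each p-value therefore measures only the spread between these libraries, which may be technical.

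Lhx2 and Lhx9 are close relatives in the LIM-homeodomain family, whose proteins join a pair of LIM domains, used for protein contacts, to a homeodomain, used for DNA binding. The LIM domains recruit the adaptor Ldb1, and LIM-only proteins compete for the same adaptor. Lhx2 is the classic selector gene of the mouse cortex: cells of the early telencephalon that lose it do not take cortical identity, and become hem or antihem, the signalling borders of the cortex. Lhx9 is known in mice for its need in gonad formation and as a marker of thalamic and other postmitotic forebrain neurons.

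Lhx2 (ENSMUSG00000000247) lies on the plus strand of mm10 chromosome 2, from 38339281 to 38369733, and its merged exons cover 4.393 kb. Lhx9 (ENSMUSG00000019230) lies on the minus strand of chromosome 1, from 138825186 to 138848577, and its merged exons cover 9.494 kb. GENCODE M21 gives 7 transcripts to each gene, of which 4 code for protein for Lhx2 and 5 for Lhx9. The longest run of bases shared by a transcript of each was 17 bases, and no other annotated gene shares exon bases with either. The 250 bases before one annotated start of each gene are shown because both genes were followed after loss of DNA-binding factors. They come from RefSeq on GRCm38.p6, the assembly of mm10, 5′ to 3′ on the gene's own strand, at chr2:38339031-38339280 (plus strand) for Lhx2 and chr1:138842445-138842694 (minus strand) for Lhx9. Capitals mark TAAT, a short core that many homeodomain proteins bind, on either strand.
Lhx2: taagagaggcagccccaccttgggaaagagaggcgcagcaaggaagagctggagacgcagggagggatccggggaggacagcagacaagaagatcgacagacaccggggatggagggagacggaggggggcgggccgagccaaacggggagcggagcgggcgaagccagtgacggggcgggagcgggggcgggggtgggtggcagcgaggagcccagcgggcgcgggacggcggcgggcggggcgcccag
Lhx9: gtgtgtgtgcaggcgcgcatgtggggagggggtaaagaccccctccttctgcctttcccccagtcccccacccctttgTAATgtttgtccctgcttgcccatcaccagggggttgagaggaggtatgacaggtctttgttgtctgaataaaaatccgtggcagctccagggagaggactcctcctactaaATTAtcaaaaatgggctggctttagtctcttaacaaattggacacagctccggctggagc

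The Lhx2 window held 72.8% G and C and the Lhx9 window 53.6%, against a median of 52.4% over all RefSeq promoter windows of that length. TAAT was found 2 times before Lhx9 and at no place before Lhx2, and 54.9% of 32851 windows held it. The longer TAATTA was in neither window and in 4.8% of all windows. ACANTGT, searched on both strands as a core of the motif known for Dmrt proteins, was in neither window and in 6.5% of all windows. The Lhx9 window lies inside the annotated gene, downstream of its outermost start. The window of a second annotated Lhx2 start held none of these 3 motifs and is not shown.

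Library totals ran from 19602718 to 33072896 counts. The labels were first checked against the targeted genes. Dmrt3 averaged 0.157 ± 0.18 CPM (read counts scaled to the library size) in the double KO, 41.5 ± 7.97 CPM in Dmrt5 KO, 0.308 ± 0.0653 CPM in Dmrt3 KO and 56.9 ± 4.1 CPM in WT (SD, n = 5, 4, 5 and 4). Dmrta2 averaged 3.55 ± 1.34 CPM in the double KO, 10.7 ± 9.64 CPM in Dmrt5 KO, 219 ± 53.7 CPM in Dmrt3 KO and 194 ± 29.7 CPM in WT. In every library, the transcript that the label names as deleted was below all WT libraries, although Dmrt5 KO replicate 1 still held 25.1 CPM of Dmrta2. The cortical regulator genes Emx1 (153 ± 32.4 CPM) and Tbr1 (175 to 300.3 CPM) were present in WT, as the cortical label requires. The WT libraries also held transcripts of the neighbouring subpallium: 10 listed subpallial genes summed to 782 to 1144 CPM. The tissue was therefore not cortex alone by these markers.

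Lhx2 had its lowest mean level in the double KO and its highest in WT. Its level was 212, 303, 279, 269 and 220.1 CPM in the 5 double KO libraries. It was 349, 389, 350 and 330.1 CPM in the Dmrt5 KO libraries, replicates 1, 2, 4 and 5. It was 659, 513, 618, 628 and 589 CPM in the Dmrt3 KO libraries, against 800, 702, 796 and 722 CPM in the WT libraries. The 4 genotypes formed 4 separate bands: no library of one genotype reached into the range of the next. Of all genes, 1.37% were lower without overlap in the double KO than in Dmrt5 KO. The shares were 1.92% for Dmrt5 KO below Dmrt3 KO and 1.67% for Dmrt3 KO below WT. The share of genes with all 4 bands separate was not computed. Lmx1a, Wnt3a and Dct, taken up below, also had 4 separate bands in the same order. Raw counts of Lhx2 were between 4330 and 24933 per library.

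**Figure D1:**
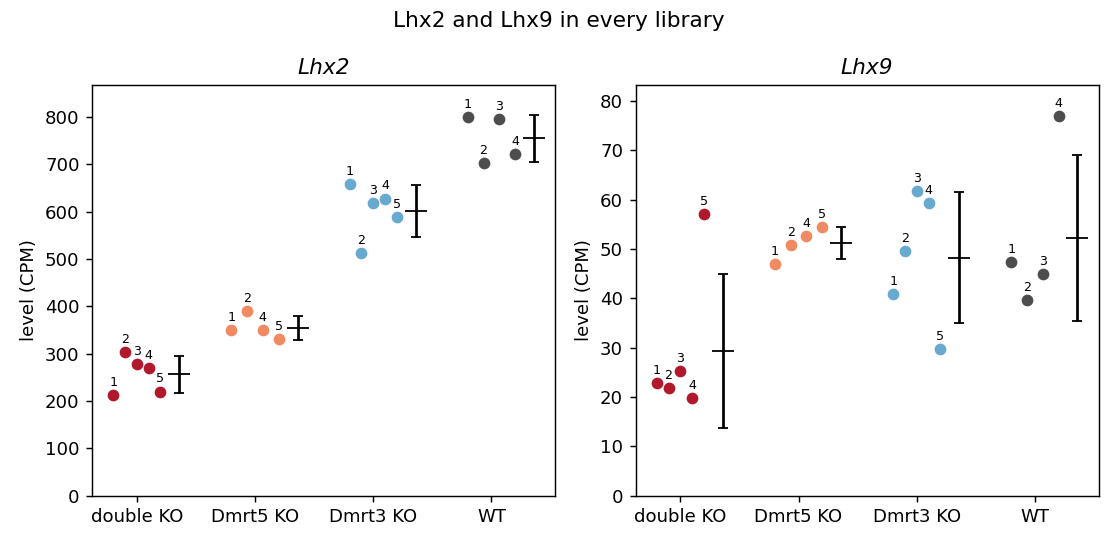
Level of Lhx2 (left) and Lhx9 (right) in CPM (linear axes from 0) in each of the 18 libraries, numbered by replicate, with mean ± SD beside each genotype. Lhx2 forms 4 bands that do not overlap, at 257 CPM in the double KO, 355 in Dmrt5 KO, 601 in Dmrt3 KO and 755 in WT on average, while for Lhx9 double KO replicate 5 (57.0 CPM) and WT replicate 4 (76.9 CPM) stand above the rest of their genotypes.

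Loss of both factors was set against WT to ask what they do together. Lhx2 fell to 257 ± 39.1 CPM in the double KO (n = 5), against 755 ± 50.2 CPM in WT (SD, n = 4). The fitted level in the double KO was 34% of that in WT, a log2 fold change of -1.56 ± 0.11 (SE; 95% interval -1.80 to -1.32; edgeR adjusted p = 2.03e-07). The gap between the highest double KO library and the lowest WT library was 400 CPM. With 6.23% of the 16236 tested genes called in this comparison and 3.4% lower without overlap, Lhx2 ranked 9th by p-value. In dissected tissue, fewer cells of a type and less RNA per cell cannot be told apart.

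Lhx2 also fell after loss of Dmrt5 alone. The level was 355 ± 24.9 CPM in Dmrt5 KO (n = 4), 47% of that in WT by the fit (log2 fold change -1.09 ± 0.12; 95% interval -1.35 to -0.83; edgeR adjusted p = 0.000177). All 4 Dmrt5 KO libraries lay at least 313 CPM below the lowest WT library. In this comparison 1.03% of genes were called (0.506% without WT replicate 4), 4.34% were lower without overlap, and Lhx2 ranked 6th of all tested genes.

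Loss of Dmrt3 alone left Lhx2 at 601 ± 55.2 CPM (n = 5), 79.6% of WT by the fit. The log2 fold change was -0.33 ± 0.11 (95% interval -0.57 to -0.09) and did not pass adjustment (edgeR adjusted p = 0.558). All 5 Dmrt3 KO libraries lay below all 4 WT libraries, by at least 43.8 CPM, as did 1.67% of all genes. In this comparison 0.0123% of genes were called (0.0244% without WT replicate 4), while 1163 genes had an unadjusted p under 0.05 and Lhx2 was the 297th of them by p-value.

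The knockouts were also set against each other. Lhx2 was lower in the double KO than in Dmrt3 KO (log2 fold change -1.23 ± 0.11, edgeR adjusted p = 2.52e-06), where 3.7% of genes were called and 2.51% were lower without overlap. It was lower in Dmrt5 KO than in Dmrt3 KO (log2 fold change -0.76 ± 0.12, edgeR adjusted p = 0.00791), where 0.228% of genes were called and 1.92% were lower without overlap. Without Dmrt5 KO replicate 5 that last call was lost (edgeR adjusted p = 0.0509). Between the double KO and Dmrt5 KO, the log2 fold change was -0.47 ± 0.11 (95% interval -0.71 to -0.23) and edgeR did not call it (adjusted p = 0.127), although the closest libraries were 27.5 CPM apart. In that comparison 0.333% of genes were called and 1.37% were lower without overlap; DESeq2 called Lhx2 there (adjusted p = 0.0184). In the order double KO, Dmrt5 KO, Dmrt3 KO and WT, the step that passed the edgeR test between neighbours was thus the one between Dmrt5 KO and Dmrt3 KO.

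Whether the effects of the 2 losses combine in Lhx2 was tested as an interaction, the double KO minus both single KO values plus WT on the log2 scale. If the single effects multiplied, the double KO would stand at 37.4% of WT, and the fitted value was 34%. The interaction was -0.14 ± 0.16 (95% interval -0.48 to 0.20; edgeR adjusted p = 0.716), with 0.142% of genes called.

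**Figure D2:**
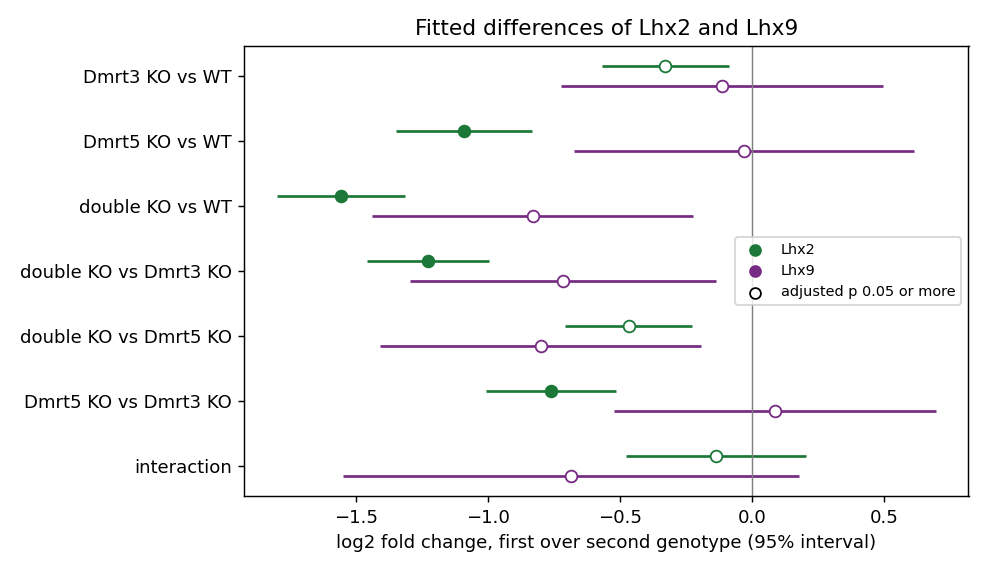
Fitted log2 fold change of Lhx2 (green) and Lhx9 (purple) in each comparison, first genotype over second, with the 95% interval; filled points have an edgeR adjusted p under 0.05. Lhx2 is filled at -1.09 for Dmrt5 KO against WT, -1.56 for the double KO against WT, -1.23 against Dmrt3 KO and -0.76 for Dmrt5 KO against Dmrt3 KO, and no Lhx9 point is filled.

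Lhx9 was the rarer transcript of the pair, and no comparison called it in the edgeR fit of all libraries without a covariate. Fits with a covariate called it in some comparisons, as given in the closing section. Its level was 22.8, 21.9, 25.2, 19.7 and 57.0 CPM in the 5 double KO libraries. It was 46.9, 50.8, 52.6 and 54.4 CPM in the Dmrt5 KO libraries, replicates 1, 2, 4 and 5. It was 40.9, 49.6, 61.7, 59.4 and 29.7 CPM in the Dmrt3 KO libraries, against 47.4, 39.7, 44.9 and 76.9 CPM in the WT libraries. The first 4 double KO libraries were below all others of the series, and the fifth lay inside the ranges of Dmrt3 KO and WT and above all Dmrt5 KO libraries. Raw counts of Lhx9 were between 463 and 2658 per library. Its SD was 53.2% of the mean in the double KO, 6.3% in Dmrt5 KO, 27.5% in Dmrt3 KO and 32.1% in WT, beside 6.64% to 15.2% for Lhx2.

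Averaged over the genotype, Lhx9 was 29.3 ± 15.6 CPM in the double KO, against 52.2 ± 16.8 CPM in WT (SD, n = 5 and 4). The log2 fold change was -0.83 ± 0.29 (95% interval -1.44 to -0.22; edgeR adjusted p = 0.11), with overlap between the genotypes. Without double KO replicate 5 it was -1.22 ± 0.22 (edgeR adjusted p = 0.00263). Without WT replicate 4 as well, a choice made after both levels had been seen, it was -0.95 ± 0.19 (edgeR adjusted p = 0.00784). Leaving out double KO replicate 5 also gave calls against Dmrt3 KO (log2 fold change -1.11, edgeR adjusted p = 0.0056) and against Dmrt5 KO (-1.19, edgeR adjusted p = 0.0213). With all libraries these were -0.72 (edgeR adjusted p = 0.193) and -0.80 (edgeR adjusted p = 0.678).

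The single knockouts were close to WT in Lhx9. Dmrt5 KO averaged 51.2 ± 3.23 CPM (n = 4), a log2 fold change of -0.03 against WT (95% interval -0.67 to 0.61; edgeR adjusted p = 0.98). Dmrt3 KO averaged 48.2 ± 13.3 CPM (n = 5), a log2 fold change of -0.12 (95% interval -0.72 to 0.49; edgeR adjusted p = 0.86). Both intervals span a change of about the size seen for Lhx2 in Dmrt3 KO, so such a change in Lhx9 was not detectable here. Both small differences had the opposite sign without WT replicate 4, at 0.21 for Dmrt5 KO and 0.13 for Dmrt3 KO. Between Dmrt5 KO and Dmrt3 KO the log2 fold change was 0.08 (edgeR adjusted p = 1). The interaction for Lhx9 was -0.69 ± 0.41 (95% interval -1.55 to 0.18; edgeR adjusted p = 0.577), and -1.07 without double KO replicate 5 (edgeR adjusted p = 0.354).

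Other values of the libraries with high Lhx9 were read beside it. Double KO replicate 5 had the lowest summed level of 10 mesenchyme genes of the series, 57.5 CPM, while the other 4 double KO libraries had 158 to 2151 CPM and WT 782 to 2479 CPM, the highest being WT replicate 4. It also had the highest length slope, 0.33, the change in log2 CPM per doubling of exon length relative to the other libraries; WT replicate 4 had the next highest, 0.24. The summed level of 10 glutamatergic neuron genes was 436 CPM in double KO replicate 5, against 241 to 299.7 CPM in the other double KO libraries and 684 to 1444 CPM in WT. Slc17a6, the vesicular glutamate transporter VGLUT2, was 59.4 CPM there, against 22.1 to 30.7 CPM in the other double KO libraries, and it was 69.0 CPM in WT replicate 4. Tbr1, a transcription factor of early cortical glutamatergic neurons, was 196 CPM there, against 97.4 to 125 CPM in the other double KO libraries. Lhx2 in double KO replicate 5, at 220.1 CPM, stayed within the range of its genotype. After each genotype's mean was subtracted, Pearson's r with the length slope was 0.78 for Lhx9 and -0.17 for Lhx2 over the 18 libraries, which share tissue and protocol. With the mean log2 level of the mesenchyme genes it was -0.59 for Lhx9 and 0.14 for Lhx2. Lhx9 has long exons (9.494 kb, against 4.393 kb for Lhx2), so its r with the length slope is not independent of its own length. Why Lhx9 was high in these libraries was not tested.

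**Figure D3:**
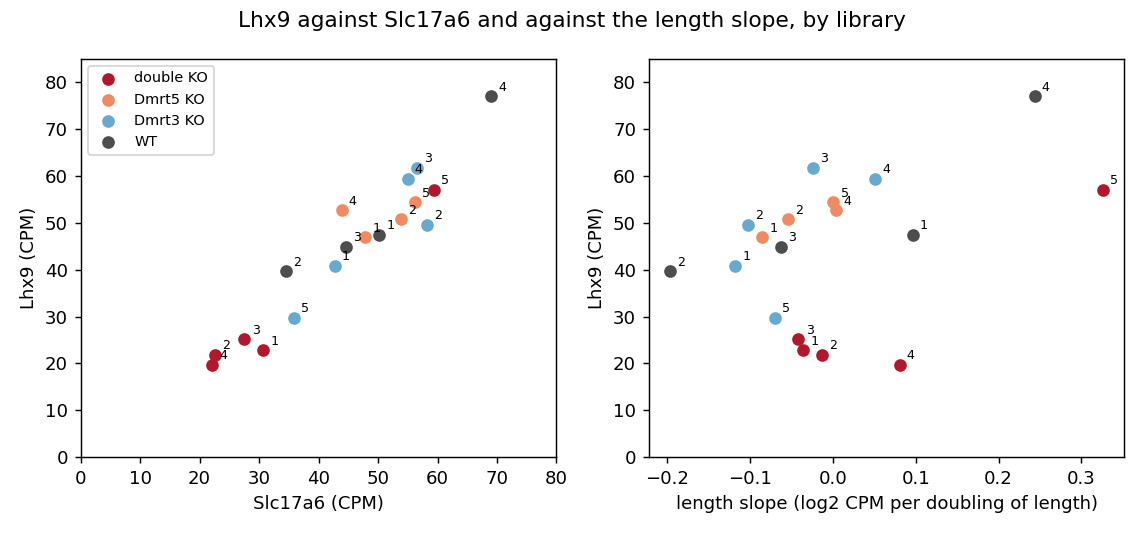
Lhx9 level (CPM) of each of the 18 libraries against its Slc17a6 level (CPM, left) and against its length slope (log2 CPM per doubling of exon length, right), numbered by replicate and coloured by genotype. Double KO replicates 1 to 4 lie at the low end of both genes, and double KO replicate 5 lies at 59.4 CPM of Slc17a6 and a length slope of 0.33, next to the libraries of the other genotypes on the left and apart from all but WT replicate 4 on the right.

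The balance of the 2 genes was compared per length, since Lhx9 has the longer exons. Lhx2 stood at 58.4 ± 8.9 CPM per kb of exon in the double KO, 80.7 ± 5.68 in Dmrt5 KO, 137 ± 12.6 in Dmrt3 KO and 172 ± 11.4 in WT. Lhx9 stood at 3.09 ± 1.64 CPM per kb in the double KO, 5.39 ± 0.34 in Dmrt5 KO, 5.08 ± 1.4 in Dmrt3 KO and 5.5 ± 1.77 in WT. The ratio of Lhx2 to Lhx9 per kb averaged 22.3 in the double KO, 15.0 in Dmrt5 KO, 28.9 in Dmrt3 KO and 33.4 in WT. It was between 13.1 and 16.6 in every Dmrt5 KO library, below every Dmrt3 KO library (21.6 to 42.8) and every WT library (20.3 to 38.3). The double KO spread across all other genotypes, from 8.3 in replicate 5 to 29.9.

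The log2 ratio of Lhx2 to Lhx9 counts was compared by two-sided exact permutation tests, with p-values adjusted over 6 comparisons. Dmrt5 KO differed from WT by -1.11 (exact p = 0.0286, the smallest these groups allow; adjusted p = 0.0857). It differed from Dmrt3 KO by -0.89 (exact p = 0.0159, again the smallest possible; adjusted p = 0.0857). The double KO differed from WT by -0.66 (exact p = 0.111, adjusted p = 0.222), or by -0.34 without double KO replicate 5 (adjusted p = 0.3 by the same exact test). None of the 6 passed adjustment, and the remaining 3 had adjusted p-values between 0.371 and 0.635.

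Genes whose level over the 18 libraries was most like that of each member were listed by Pearson's r of log2 CPM, among 10507 genes. For Lhx2 these were Hey1 (0.97), Fezf2 (0.96), Id4 (0.95), Dmrta2 itself (0.95) and Emx2 (0.94). The most opposite were Slc10a4 (-0.94), Six3 (-0.94), Ptprn2 (-0.94), Smoc1 (-0.94) and ENSMUSG00000090828 (-0.93). These values mostly trace the genotype means: after subtracting them, the highest for Lhx2 were Zfp691 (0.87), Rtca, Wscd1, Fbxw4 and Aph1a (0.82), none of which was on the first list. For Lhx9 the most alike were Slc17a6 (0.96), Tbr1 (0.91), Abcd2 (0.89), Cacna2d1 (0.89) and Plcxd2 (0.89), and the most opposite As3mt (-0.79), Ccn1, Nog, Fgf15 and Hsd17b11 (-0.74). After subtracting genotype means, Epha3 (0.96), Fam172a, Slc17a6 (0.94), Atp8a1 and Abhd18 (0.93) were highest for Lhx9. Double KO replicate 5 and WT replicate 4 had the highest Lhx9 and Slc17a6 of their genotypes and the highest length slopes of the series. How far the r-values of Lhx9 rest on these libraries was not tested. Lhx2 and Lhx9 had an r of 0.48 with each other, and of -0.32 within genotypes. The 18 points share tissue, depth range and library preparation, and the r-values are a description.

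Beside Lhx2 and Lhx9, 10 further LIM-homeodomain genes were listed, and 7 passed the filter on low counts; Lhx3, Lhx4 and Isl2 had at most 7 counts in any library. In the double KO 4 rose and 1 fell against WT, against backgrounds of 2.42% higher and 3.81% lower over all genes. The median log2 fold change of the 7 was 1.07, and that of all genes 0.0064. These counts were the same without double KO replicate 5, without WT replicate 4 and without both. With the mesenchyme score as covariate, Lhx5, Lhx6 and Lhx8 lost their calls (edgeR adjusted p 0.086, 0.151 and 0.0568), and Isl1 and Lmx1a kept theirs.

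The 4 genes that rose are known as markers of several neuron types. Isl1, a regulator of striatal projection neurons, was 120.2, 112, 91.9, 73.7 and 156 CPM in the double KO libraries, against 41.6, 31.8, 34.9 and 41.2 CPM in WT. All double KO libraries lay above all WT libraries, as did 2.57% of all genes (log2 fold change 1.57 ± 0.20, edgeR adjusted p = 0.000101). Lhx8, a regulator of basal forebrain cholinergic neurons, averaged 77 ± 24.7 CPM in the double KO, against 18.3 ± 7.11 CPM in WT (log2 fold change 2.07, edgeR adjusted p = 0.00495). Lhx6, a regulator of interneurons from the medial ganglionic eminence, averaged 130 ± 45.8 CPM in the double KO, against 36.2 ± 13.6 CPM in WT (log2 fold change 1.84, edgeR adjusted p = 0.00825). Lhx5, which in mice is needed for hippocampal development and for Cajal-Retzius neurons, averaged 48 ± 8.9 CPM in the double KO, against 22.8 ± 6.81 CPM in WT (log2 fold change 1.07, edgeR adjusted p = 0.00664).

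Lmx1a, a gene of the cortical hem and choroid plexus lineage, was the family member that fell. It was 1.47, 2.37, 2.76, 3.88 and 1.33 CPM in the double KO libraries, against 17.97, 20.2, 19.8 and 17.7 CPM in WT (log2 fold change -3.00 ± 0.24, edgeR adjusted p = 4.73e-07). In Dmrt5 KO it was 5.44, 4.93, 5.14 and 4.80 CPM, all below WT, as were 4.34% of all genes (log2 fold change -1.90 ± 0.24, edgeR adjusted p = 0.001). Dmrt3 KO libraries had 11.3 to 15.3 CPM, all below WT, as were 1.67% of all genes. This difference of Lmx1a was not called (log2 fold change -0.53, edgeR adjusted p = 0.65). Lmx1a thus had the same order of genotypes as Lhx2, likewise without overlap between any of them. Lhx1 (log2 fold change 0.73, edgeR adjusted p = 0.332) and Lmx1b (-0.66, edgeR adjusted p = 0.874) were not called in the double KO.

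In Dmrt5 KO, 1 of the 7 family members rose and 1 fell, against backgrounds of 0.339% and 0.69%. The one that rose was Isl1, at 58.7, 82.9, 62.5 and 74.1 CPM (log2 fold change 0.90, edgeR adjusted p = 0.0425). This call was lost when any 1 WT or Dmrt5 KO library was left out (edgeR adjusted p 0.0637 to 0.169). In Dmrt3 KO none of the 7 was called by edgeR or DESeq2, and 1 had an unadjusted p under 0.05, with a median log2 fold change of 0.29 beside -0.0036 over all genes. The numbers of family members that passed in the 3 comparisons were not tested against each other.

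**Figure D4:**
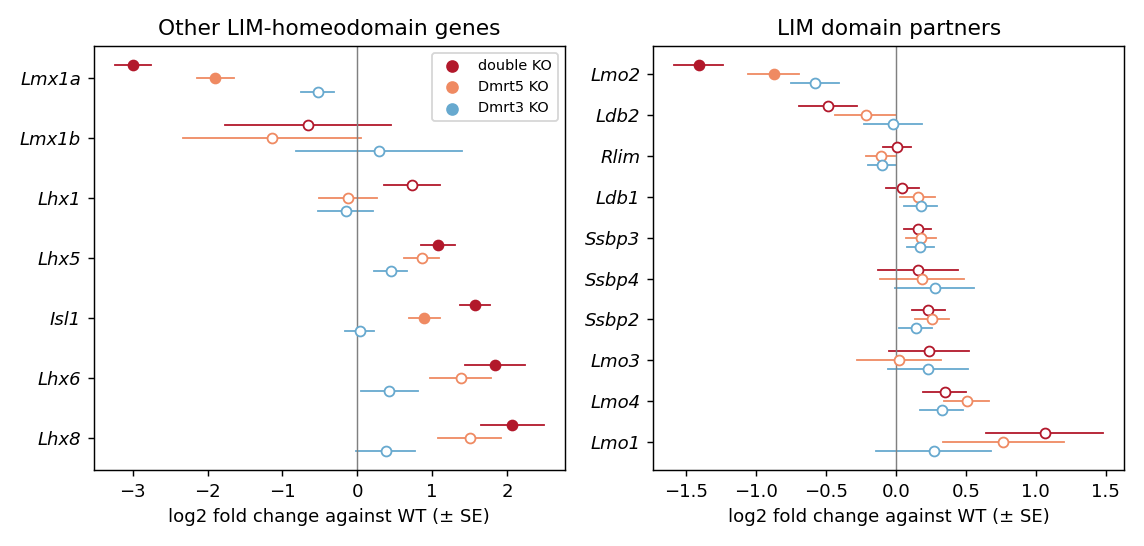
Log2 fold change against WT (± SE) of 7 further LIM-homeodomain genes (left) and 10 genes of LIM domain partners (right) in the double KO (top of each triplet), Dmrt5 KO and Dmrt3 KO; filled points have an edgeR adjusted p under 0.05. Isl1, Lhx5, Lhx6 and Lhx8 are filled to the right of 0 in the double KO, Lmx1a is filled at -3.00 and -1.90, and among the partners Lmo2 is filled at -1.41 in the double KO and -0.87 in Dmrt5 KO.

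Genes of proteins that meet the LIM domains were read next. Of 10 tested, 1 fell in the double KO and in Dmrt5 KO, and in Dmrt3 KO neither edgeR nor DESeq2 called any. An unadjusted p under 0.05 was found for 4 of the 10 in the double KO, 3 in Dmrt5 KO and 2 in Dmrt3 KO. Over all 16236 genes, 3.81% fell in the double KO and 0.69% in Dmrt5 KO, and 2869 genes in the double KO, 1835 in Dmrt5 KO and 1163 in Dmrt3 KO had an unadjusted p under 0.05. Ldb1, the adaptor that Lhx2 and Lhx9 share, averaged 556 ± 78.1 CPM in the double KO, against 539 ± 73.1 CPM in WT (log2 fold change 0.05, edgeR adjusted p = 0.935). Rlim, a ubiquitin ligase that acts on Ldb proteins, had 0.01 (edgeR adjusted p = 0.987), and the Ldb-stabilising Ssbp2, Ssbp3 and Ssbp4 had 0.23, 0.16 and 0.16 (edgeR adjusted p 0.32, 0.476 and 0.89). Among LIM-only genes, Lmo1 had 1.06, Lmo3 0.24 and Lmo4 0.35 (edgeR adjusted p 0.17, 0.799 and 0.236), and the adaptor Ldb2 had -0.49 (edgeR adjusted p = 0.221).

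Lmo2, a LIM-only gene best known from blood and vessel development, was the partner that fell. It was 22.7, 18.04, 15.7, 18.9 and 11.7 CPM in the double KO libraries, against 38.8, 59.2, 50.5 and 36.6 CPM in WT. No double KO library reached the lowest WT library, as for 3.4% of all genes (log2 fold change -1.41 ± 0.17, edgeR adjusted p = 7.05e-05). In Dmrt5 KO it averaged 25.2 ± 2.21 CPM (log2 fold change -0.87, edgeR adjusted p = 0.0255). That call was lost without any 1 Dmrt5 KO library or without WT replicate 2 or 3 (edgeR adjusted p 0.0568 to 0.112), and in a fit of these 2 genotypes alone (edgeR adjusted p = 0.0741). Of 6 endothelial marker genes none was called by edgeR and 1 fell by DESeq2 in the double KO, with 3 at an unadjusted p under 0.05; of 6 erythroid genes none was called by either tool, with 1 at an unadjusted p under 0.05. Their part in the fall of Lmo2 was not tested.

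Other regulators of the dorsal telencephalon were set beside Lhx2; over all genes 2.42% rose and 3.81% fell in the double KO, and 0.339% rose and 0.69% fell in Dmrt5 KO. Of 12 tested pallial regulators, 5 fell and 2 rose in the double KO (1 rose without its replicate 5 or without WT replicate 4), with a log2 fold change of -4.17 for Emx1, -2.01 for Fezf2, -1.62 for Emx2 and -0.87 for Id4, so that Lhx2, at -1.56, lay between Emx2 and Id4. In Dmrt5 KO 3 fell, with log2 fold changes of -0.92 for Fezf2, -0.80 for Emx2 and -0.46 for Id4, beside -1.09 for Lhx2. In Dmrt5 KO 4 fell and 1 rose without double KO replicate 5 and with DESeq2, and 2 fell without WT replicate 4. Emx1 had -1.05 in Dmrt5 KO and was not called (edgeR adjusted p = 0.0603). Lhx9 stood beside the glutamatergic neuron genes, of which 9 of 10 fell in the double KO, or 10 of 10 without its replicate 5, and none in Dmrt5 KO, where DESeq2 called 1 and 3 had an unadjusted p under 0.05. Tbr1 had -0.94 and Nhlh1 -2.45 in the double KO, beside the uncalled -0.83 of Lhx9. The median of the 10 was -2.25, and Slc17a6 had -0.61 and was not called (edgeR adjusted p = 0.219). Of 10 subpallial genes, 10 rose in the double KO and 5 in Dmrt5 KO, with Six3 at 1.49 in the double KO and 1.01 in Dmrt5 KO; for Dmrt5 KO the count was 2 without WT replicate 4 and 9 with DESeq2.

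Markers of the borders and of neighbouring tissue were counted in the same fits, and each count stands against the same shares of all genes as above, or 2869 (double KO), 1835 (Dmrt5 KO) and 1163 (Dmrt3 KO) of 16236 genes at an unadjusted p under 0.05. Of 12 tested cortical hem genes 8 fell in the double KO and 1 in Dmrt5 KO, led by Rspo2 (-2.93) and Wnt3a (-6.18). Of 6 antihem genes Sfrp2 rose (1.12) and Dbx1 fell (-1.09) in the double KO, and none was called in Dmrt5 KO by edgeR or DESeq2, with 1 at an unadjusted p under 0.05. Of 8 Cajal-Retzius genes Trp73 (-1.95) and Ebf2 (-2.13) fell in the double KO, and Trp73 fell in Dmrt5 KO. Of 10 diencephalic genes 1 rose in the double KO, Gbx2 (1.62). Of 6 tested eye genes, from an organ whose formation needs Lhx2 in mice, Dct (-5.12) and Mitf (-1.50) fell and 1 rose in the double KO. The median log2 fold change of the 6 eye genes was 0.37 there. In Dmrt5 KO Dct fell (-3.05) and no other eye gene was called. Of 10 mesenchyme and 6 microglial genes none was called in either by edgeR or DESeq2, with 1 mesenchyme gene at an unadjusted p under 0.05 in the double KO. In Dmrt3 KO no member of any list was called by edgeR or DESeq2, and between 0 and 4 per list had an unadjusted p under 0.05. Without double KO replicate 5, 4 Cajal-Retzius genes fell in the double KO, and 2 hem, 2 Cajal-Retzius and 1 glutamatergic gene fell in Dmrt5 KO. Without WT replicate 4, no hem or Cajal-Retzius gene was called in Dmrt5 KO. In the double KO no diencephalic gene was then called, no eye gene rose, and 1 erythroid gene fell. With DESeq2, 4 hem, 2 Cajal-Retzius and 2 eye genes fell and 1 diencephalic gene rose in Dmrt5 KO. The part of these tissues in the levels of Lhx2 and Lhx9 was not tested.

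The annotated neighbours of Lhx2 and Lhx9 within 100 kb were read last. Dennd1a, whose nearer end lies 51.9 kb from Lhx2, had a log2 fold change of -0.24 in the double KO, and Gm13589 had -0.17 (edgeR adjusted p 0.398 and 0.931). 2310009B15Rik, 3.4 kb from Lhx9, had -0.16 (edgeR adjusted p = 0.92). Gm13584, annotated on the opposite strand inside an Lhx2 intron (38359580 to 38363980), had 1, 5, 1, 5 and 18 counts in the double KO, against 41, 5, 22 and 84 counts in WT (log2 fold change -2.30, edgeR adjusted p = 0.046). The groups overlapped, and the call was lost in 7 of the 9 fits that left out 1 library. The library kit does not mark strand, so reads of Gm13584 and of unspliced Lhx2 cannot be told apart; they came to at most 0.337% of the Lhx2 count in any library. Gm27197, 1700019P21Rik and Gm3933 were not analysed here.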

How the data were processed

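The deposited files hold raw counts per Ensembl gene, 1 file per library, without normalisation by the authors. Per the labels' protocols, RNeasy was used for extraction and TruSeq RNA v2, a kit without strand marking, for the libraries. Per the submitters' processing notes, the build was mm10 and the tools included STAR 2.3.0e as well as featureCounts 1.4.6-p1, besides bcl2fastq, FastQC 0.10.1, DESeq2 1.8.2 and CASAVA 1.8.2, with no role given. The annotation release and the handling of reads with several matches remained unknown (not given in the sources used here). Each file lists 38355 genes, and its summary entries sum to 0. Symbols, coordinates and exon lengths were taken from GENCODE M21 (GRCm38) by identifier; 36602 identifiers matched, and the others held 0.397% of the counts.

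Counts were fitted with edgeR 4.0.16 in R 4.3.3: filterByExpr by genotype kept 16236 genes, scaling was by trimmed mean of M-values (TMM), and the quasi-likelihood fit had 1 mean for each genotype over all 18 libraries. P-values were adjusted by Benjamini-Hochberg over all tested genes, with calls made below an adjusted p of 0.05; "rose" and "fell" are used of called genes. CPM values use the scaled library sizes; log2 CPM used a prior count of 2. Alternatives were DESeq2 1.42.0, its size factors, no filter, fits of 2 genotypes, a replicate block, a mesenchyme score or the length slope as covariate, and leaving out each library. Ratios were tested with scipy 1.17.1.

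Lhx2, Lhx9, the 14 gene lists and the tests were chosen with earlier results of these data known. Named by rule were Lhx2, Lhx9, Dmrt3, Dmrta2, all LIM genes, up to 4 members of each other list with the lowest p in the double KO against WT, the 5 genes with the highest and lowest r, and neighbours within 100 kb; 1 eye gene is not reported here. Likeness was limited to genes whose mean log2 CPM was 3 or more. No 2 libraries of a genotype agreed within sampling noise (lowest chi-square per degree of freedom 11.8). Total counts of 19602718 to 33072896 per library set the precision of each value.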

Additional observations from a re-analysis of the deposited data

Results flagged for a closer look

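In 20 groups of 4 or 5 libraries examined for a library far from the rest, 3 had one, and chance gives about 1 in 20. The highest Lhx9 level in the double KO, 57.0 CPM in replicate 5, stood apart from the other 4 libraries, which lay between 19.7 and 25.2 CPM. The lowest log2 ratio of Lhx2 to Lhx9 counts in WT, 3.23 in replicate 4, stood apart from 4.08 to 4.15 in the other 3 libraries. The highest Dmrta2 level in Dmrt5 KO, 25.1 CPM in replicate 1, stood apart from the other 3 libraries, which lay between 4.31 and 6.935 CPM. Lhx2 in Dmrt5 KO replicate 1 was 349 CPM, inside the range of its genotype.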

How the results depend on the processing

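Lhx2 kept its direction in every alternative run, and its calls against WT were the same in all of them. Between the double KO and Dmrt5 KO, DESeq2 called Lhx2 (-0.47, adjusted p = 0.0184). Without 1 library, its log2 fold changes ran from -1.62 to -1.50 for the double KO against WT, -1.14 to -1.06 for Dmrt5 KO against WT, -0.36 to -0.28 for Dmrt3 KO against WT, -1.29 to -1.17 for the double KO against Dmrt3 KO, -0.53 to -0.41 for the double KO against Dmrt5 KO and -0.81 to -0.73 for Dmrt5 KO against Dmrt3 KO, where the call was lost without Dmrt5 KO replicate 5. The ratio differences kept their direction; leaving out 1 library moved the double KO against WT between -0.89 and -0.34, against Dmrt3 KO between -0.58 and -0.12 and against Dmrt5 KO between 0.31 and 0.77, and Dmrt3 KO against WT between -0.44 and -0.13. With fewer libraries the exact tests have little room to pass, so their p-values show nothing on stability.

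Lhx9 depended more on the settings. With the mesenchyme score as covariate it was called in the double KO against WT (-1.40, edgeR adjusted p = 0.0184) and against Dmrt3 KO (-1.22, edgeR adjusted p = 0.0328), and Dmrt5 KO against Dmrt3 KO reversed to -0.012. With the length slope as covariate it was called in the double KO against WT (-1.01, edgeR adjusted p = 0.00104), Dmrt3 KO (-1.12, edgeR adjusted p = 0.000818) and Dmrt5 KO (-1.16, edgeR adjusted p = 0.00403), while the uncalled values against WT reversed to 0.11 in Dmrt3 KO and 0.16 in Dmrt5 KO. Double KO replicate 5, with its high Lhx9, had the lowest mesenchyme score (1.09) and the highest length slope (0.33) of the series. The calls with these covariates are therefore not independent of leaving that library out. Without double KO replicate 5 and WT replicate 4, chosen after seeing the data, Lhx9 was -0.95 in the double KO against WT. Without 1 library it ran from -1.22 to -0.59 for the double KO against WT, -1.11 to -0.60 against Dmrt3 KO, -1.19 to -0.69 against Dmrt5 KO, -0.14 to 0.21 for Dmrt5 KO against WT, -0.22 to 0.13 for Dmrt3 KO against WT and -0.048 to 0.19 for Dmrt5 KO against Dmrt3 KO. The uncalled reversals without 1 library were 0.13 and 0.21 (WT replicate 4), 0.017 and -0.048 (Dmrt3 KO replicate 5) and 0.0025 (Dmrt5 KO replicate 1). The Lhx9 interaction ran from -1.07 to -0.57 without 1 library, was -1.02 with the mesenchyme score, -1.27 with the length slope (edgeR adjusted p = 0.0673) and -1.32 without both libraries, and was called in none. The cause of these shifts was not tested.

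Of the LIM-homeodomain genes, 1 rose in the double KO with the mesenchyme score, against 4. In Dmrt5 KO 0 rose with no filter, 4 with DESeq2 and 2 each with fits of 2 genotypes, the replicate block and the length slope, against 1; without 1 library the count was 0 to 1. In the double KO 1 to 2 fell without 1 library.

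Deviations of same-numbered libraries had an r of -0.587 to 0.792, over 0.1 in 16 of 24 pairs but not in all. Pairs with different numbers had an r of -0.841 to 0.843, and their share over 0.1 was not computed. The labels state no shared litter or day, so the numbers were not taken as a pairing. With the replicate block, Lhx2 was -1.53 in the double KO and -1.04 in Dmrt5 KO against WT, both still called, and Lhx9 -0.93 (edgeR adjusted p = 0.0877). The interaction had no fit of 2 genotypes.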
